A study of Mus musculus with 4 samples.

Results

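Alveolar macrophages are the resident phagocytes of the airspace, and 10 genes that mark them or carry out their work were followed across the lung transcriptomes of WT and Rab44-KO mice. The genes were Marco, Ch25h, Pparg, Fabp4, Krt79, Plet1, Atp6v0d2, Abcg1, Msr1 and Mertk. They were picked by symbol from a count table of 41079 genes, and all 10 were present and passed the filter on low counts. The list was drawn up with results of these same libraries in view. Its values are therefore a description, and no test was made.

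The study asked how loss of Rab44, a large Rab GTPase of immune cells, changes allergic airway inflammation. Lung RNA was sequenced in 4 libraries, 1 per group, from female C57BL/6 mice aged 8 to 14 weeks that were either WT or littermates with a CRISPR/Cas9-disrupted Rab44 gene. Normal WT and normal Rab44-KO mice are labelled as untreated, although the protocol shared by all samples also names a PBS challenge. Both OVA-induced groups, WT and Rab44-KO, received 100 µg ovalbumin (OVA) in alum intraperitoneally on days 0, 7 and 14, then 100 µg OVA in 50 µL intranasally for 4 days, and lungs were taken on day 21. The deletion was not limited to 1 cell type. Neither the number of mice behind a library nor whether these lungs had been lavaged is stated in the sources used here, and lavage removes cells of the airspace.

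Alveolar macrophages take up inhaled particles, bacteria and spent surfactant. Their identity is set after birth by GM-CSF and TGF-β through the lipid-sensing nuclear receptor PPARγ, and the lipid they swallow is bound, stored or exported. Several of the genes are used elsewhere in the lung too. Fabp4 and Pparg are well known from adipocytes, Fabp4 also from capillary endothelium, and Mertk from many macrophages.

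The libraries held 18112901 to 19910236 counts, and 24316 to 25003 genes had a count in each. Rab44 itself had 251 counts in WT against 1 in Rab44-KO lungs under normal conditions, and 810 against 0 under OVA-induced conditions, which matches the labels. Levels are given as CPM, counts relative to library size, after TMM, a normalisation that lines up the bulk of genes between libraries. The log2 fold change (log2FC) is the log2 ratio of these levels, and a gene beyond a log2FC of 1 in either direction was counted as over 2-fold. Where 4 values follow each other unlabelled, they stand for normal WT and Rab44-KO lungs, then for OVA-induced WT and Rab44-KO lungs. With 1 library per group no difference has a replicate check. The ranges in parentheses are 95% intervals of each ratio by the exact Clopper-Pearson method, which cover counting error only. In whole lung, fewer macrophages and less RNA per macrophage cannot be told apart.

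Promoter sequence was available for 6 of the 10 genes, in RefSeq on GRCm38.p6. The windows below are shown because Marco and Ch25h were above WT in the normal Rab44-KO library whereas Krt79 was nearly level between them. Each is the 250 bases before the RefSeq start, read 5′ to 3′ on the strand of the gene, which is the minus strand for all of them. They lie at chr1:120505025-120505274 for Marco, chr19:34475149-34475398 for Ch25h and chr15:101940325-101940574 for Krt79. For Ch25h, GENCODE places the start a few bases further upstream, inside this window. Capitals mark the matches described after them.

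Marco: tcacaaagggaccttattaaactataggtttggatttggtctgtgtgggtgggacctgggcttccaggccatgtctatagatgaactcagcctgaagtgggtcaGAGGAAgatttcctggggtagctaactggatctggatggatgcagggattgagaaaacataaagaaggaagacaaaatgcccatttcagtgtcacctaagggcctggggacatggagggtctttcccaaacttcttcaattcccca
Ch25h: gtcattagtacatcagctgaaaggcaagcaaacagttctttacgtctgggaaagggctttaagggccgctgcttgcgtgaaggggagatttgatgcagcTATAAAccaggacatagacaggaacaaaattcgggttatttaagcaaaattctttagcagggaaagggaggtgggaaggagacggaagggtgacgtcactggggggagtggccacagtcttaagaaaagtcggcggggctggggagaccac
Krt79: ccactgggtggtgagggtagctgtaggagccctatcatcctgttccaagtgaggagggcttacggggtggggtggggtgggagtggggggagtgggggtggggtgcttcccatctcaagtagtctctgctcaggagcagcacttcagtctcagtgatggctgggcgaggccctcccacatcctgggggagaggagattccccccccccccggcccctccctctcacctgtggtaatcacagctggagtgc

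Both strands were searched for 5 words. They were the nuclear receptor half-site AGGTCA, the ETS core of the kind PU.1 binds, GAGGAA, the AP-1 site TGAGTCA, the MiT-family E-box CACGTG and the TATA box, TATAAA. None of these words contains another. The Marco window held 1 GAGGAA, 146 to 141 bases before the start, a word present in 23.3% of 32851 RefSeq promoter windows of that length. The Ch25h window held 1 TATAAA, 151 to 146 bases before the start, which 12.4% of windows hold. The Krt79 window held no match to the 5 words. No word was shared by the Marco and Ch25h windows. The other available windows, not shown, were of Plet1, Pparg and Mertk. Plet1, nearly level in normal lungs (Rab44-KO over WT log2FC 0.01), had the half-site and the TATA box. Pparg (0.44) had the half-site in windows 1 and 2. Its window 2 also had the ETS core and the TATA box, and its window 3 had no match. Mertk (−0.05) had no match. Having a match thus did not separate the genes raised in normal Rab44-KO lungs from the level ones. A match is a run of letters and not a measured binding site.

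Marco, the class A scavenger receptor that binds unopsonised bacteria and particles, had the widest range of levels among the 10 genes as a ratio of the highest to the lowest (12.1). The gene lies at chr1:120474538-120505024 (GRCm38, GENCODE M21, minus strand). It had 145 counts (7.55 CPM) in WT against 379 (20.8 CPM) in Rab44-KO lungs under normal conditions, and 912 (47.1 CPM) against 76 (3.90 CPM) under OVA-induced conditions. The order between the genotypes was thus opposite in the 2 conditions. Under normal conditions the Rab44-KO level was 2.75-fold the WT level (log2FC 1.46, 1.18 to 1.75). Under OVA-induced conditions it was 12.1-fold lower (log2FC −3.59, −3.95 to −3.26). Each step in the order of the 4 levels exceeded its counting error.

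Read along OVA induction, the same counts put the OVA-induced WT level of Marco at 6.23-fold the normal WT level (log2FC 2.64, 2.39 to 2.90). In Rab44-KO lungs it was 5.32-fold lower (log2FC −2.41, −2.79 to −2.05). Of 13484 genes reaching 100 counts in either Rab44-KO library, it stood at place 8 from the lowest. The OVA response in Rab44-KO less that in WT was −5.05 on the log2 scale (95% counting interval −5.49 to −4.61), at place 23 from the lowest of 13899 genes.

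Msr1, the other class A scavenger receptor followed here, takes up modified lipoproteins and followed another order. The gene spans chr8:39581685-39642673 on the minus strand. It had 89 counts (4.64 CPM) in WT against 74 (4.05 CPM) in Rab44-KO lungs under normal conditions, and 303 (15.6 CPM) against 169 (8.67 CPM) under OVA-induced conditions. Both OVA-induced libraries were above both normal libraries. The OVA log2FC was 1.75 (1.41 to 2.11) in WT and 1.09 (0.69 to 1.51) in Rab44-KO lungs. The second value was 0.98 once a trend of log2FC along gene length was taken out, when the Rab44-KO over WT value in OVA-induced lungs became −1.20 instead of −0.85. Per transcript length, Marco was more abundant than Msr1 in every library, with a ratio of TPM (counts relative to gene length and library size) of 7.23 (WT) and 22.7 (Rab44-KO) without OVA, and 13.4 (WT) and 1.99 (Rab44-KO) with it.

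Ch25h encodes cholesterol 25-hydroxylase, an enzyme induced by interferon and Toll-like receptor signals whose oxysterol product is antiviral and a precursor of a lymphocyte attractant. It is a gene of 1 exon at chr19:34473778-34475164 (minus strand). Ch25h had 62 counts (3.23 CPM) in WT against 165 (9.04 CPM) in Rab44-KO lungs under normal conditions, and 425 (21.9 CPM) against 123 (6.31 CPM) under OVA-induced conditions. As with Marco, the Rab44-KO library was the higher under normal conditions and the lower under OVA-induced conditions. The Rab44-KO over WT log2FC was 1.48 (1.06 to 1.93) in normal lungs. It was −1.80 (−2.10 to −1.51), or 3.48-fold lower, in OVA-induced lungs. The OVA log2FC was 2.76 (2.38 to 3.17) in WT and −0.52 (−0.87 to −0.17) in Rab44-KO lungs, so that the OVA-induced Rab44-KO library stood below its normal counterpart though above normal WT. The gene Gm26902 overlaps the Ch25h exon on the opposite strand and has no value here, and whether counting used strand is not given in the sources used here.

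**Figure D1:**
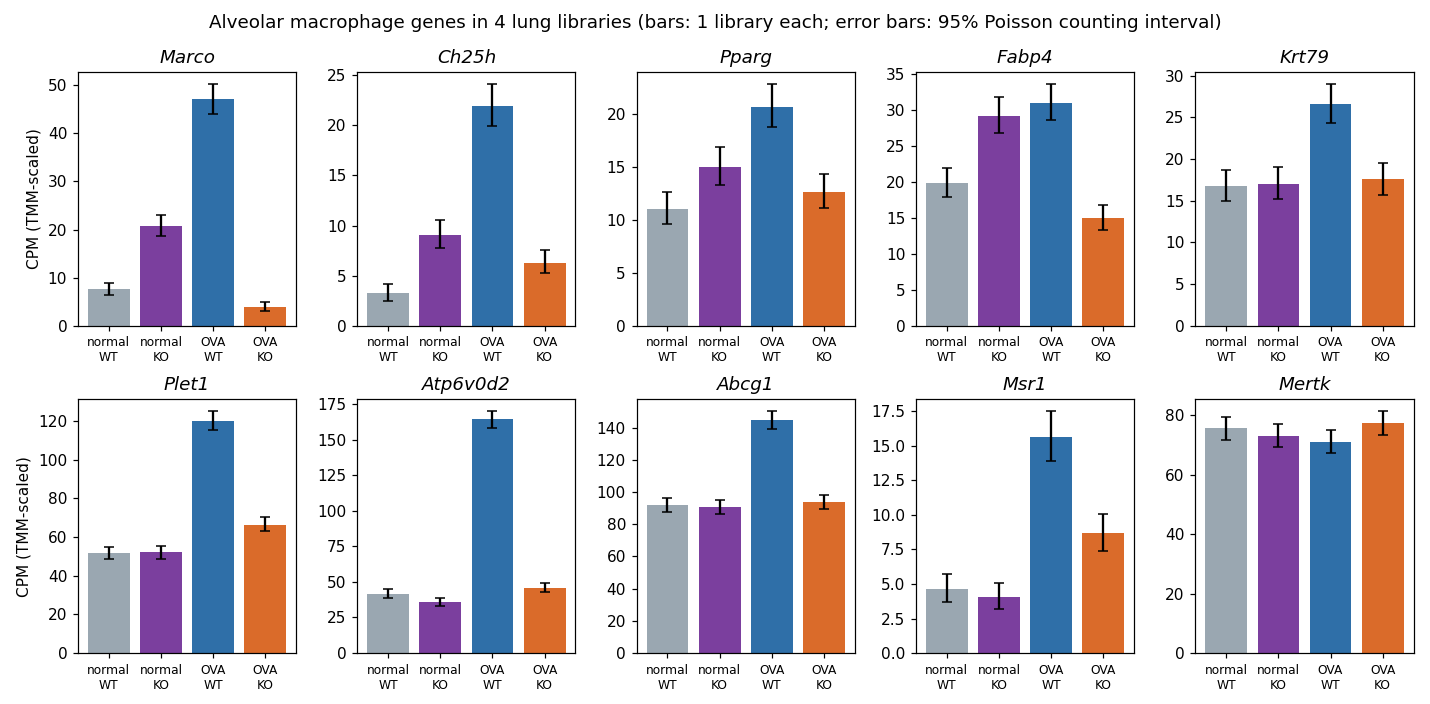
TMM-scaled CPM (vertical axes, from 0) of the 10 alveolar macrophage genes in the 4 lung libraries, 1 bar per library, with 95% Poisson counting intervals as error bars. In 9 of the 10 panels the OVA-induced WT bar is the tallest, and in the Mertk panel the 4 bars lie between 71.1 and 77.4 CPM.

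Pparg and Fabp4, like Marco and Ch25h, stood above WT in the normal Rab44-KO library and below it in the OVA-induced one, by smaller differences. Pparg, the nuclear receptor itself (chr6:115360951-115490399, plus strand), had 212 counts (11 CPM) in WT against 274 (15 CPM) in Rab44-KO lungs under normal conditions, and 401 (20.7 CPM) against 247 (12.7 CPM) under OVA-induced conditions. Its Rab44-KO over WT log2FC was 0.44 (0.18 to 0.71) in normal and −0.71 (−0.94 to −0.48) in OVA-induced lungs. The OVA-induced Rab44-KO library differed from neither normal library beyond counting error.

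Fabp4, a fatty acid binding protein that PPARγ induces (chr3:10204088-10208576, minus strand), had 381 counts (19.8 CPM), 533 (29.2 CPM), 602 (31.1 CPM) and 292 (15 CPM). The OVA-induced Rab44-KO library was the lowest, and the 2 highest did not differ beyond counting error. The Rab44-KO over WT log2FC was 0.56 (0.37 to 0.75) in normal and −1.05 (−1.26 to −0.85) in OVA-induced lungs. The second value passed 2-fold by a small margin and was −0.73 with TPM and −0.49 with the length trend taken out. Along OVA induction Fabp4 had a log2FC of 0.65 for WT and −0.96 (−1.17 to −0.75) in Rab44-KO lungs.

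Fabp5, the epidermal relative of Fabp4 that macrophages also use, stood at 1539, 1441, 5389 and 756 counts. Its genotype difference lay in the OVA-induced libraries, where the log2FC was −2.84 (−2.95 to −2.73), against −0.02 (−0.13 to 0.08) in normal lungs. The TPM ratio of Fabp4 to Fabp5 was 0.273 (WT) and 0.408 (Rab44-KO) without OVA, and 0.123 (WT) and 0.426 (Rab44-KO) with it. Fabp4 was the less abundant of the pair per length in all 4 libraries. Of the 150-base windows of Fabp5 transcripts, 0.816% were shared with the copy Gm6166. Of the 9 other genes of the family 4 passed the filter in OVA-induced lungs, and Fabp5 was the 1 over 2-fold lower in Rab44-KO lungs. Fabp1 and Fabp3, the latter the form of heart muscle, were over 2-fold higher, Fabp3 with 377, 405, 160 and 430 counts.

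Abcg1 exports cholesterol from macrophages, and its loss fills alveolar macrophages with lipid. At chr17:31057675-31117988 (plus strand), it had 1765 counts (91.9 CPM) in WT against 1659 (90.9 CPM) in Rab44-KO lungs under normal conditions, and 2805 (145 CPM) against 1828 (93.8 CPM) under OVA-induced conditions. One library, OVA-induced WT, was above the other 3, which did not differ beyond counting error. The log2FC of Rab44-KO over WT under OVA-induced conditions was −0.63 (−0.71 to −0.54). Abca1, the other exporter driven by the oxysterol receptors LXR, had its lowest value where Abcg1 had its highest, with 1770, 2212, 1197 and 1861 counts and a log2FC of 0.39 (0.30 to 0.49) in normal and 0.63 (0.52 to 0.73) in OVA-induced lungs, the latter between 0.22 and 0.95 over the settings tried. The TPM ratio of Abcg1 to Abca1 was 4.20 in OVA-induced WT and 1.34 to 1.79 in the other libraries.

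Krt79, a type II keratin, and Plet1, a surface protein of epithelial progenitors, are epithelial genes by name that also serve as markers of murine alveolar macrophages. Krt79 (chr15:101929332-101940324, minus strand) had 322 counts (16.8 CPM) in WT against 310 (17.0 CPM) in Rab44-KO lungs under normal conditions, and 515 (26.6 CPM) against 342 (17.5 CPM) under OVA-induced conditions. Plet1 (chr9:50494525-50505482, plus strand) had 993 counts (51.7 CPM), 951 (52.1 CPM), 2324 (120.0 CPM) and 1295 (66.4 CPM). For both, the normal libraries did not differ beyond counting error, and OVA-induced WT was the highest.

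The log2FC of Rab44-KO over WT under OVA-induced conditions was −0.60 (−0.80 to −0.40) for Krt79 and −0.85 (−0.95 to −0.75) for Plet1. Along OVA induction Plet1 had a log2FC of 1.21 for WT and 0.35 (0.23 to 0.47) in Rab44-KO lungs. The antisense gene Plet1os overlaps Plet1 on the opposite strand and had 386, 383, 1081 and 547 counts, and reads of the pair cannot be told apart unless strand was used in counting. Its OVA-induced log2FC of −0.99 was close to that of Plet1.

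Atp6v0d2 encodes the d2 subunit of the membrane sector of the vacuolar proton pump, the form used by macrophages and osteoclasts. At chr4:19876841-19922605 (minus strand), it had 802 counts (41.8 CPM) in WT against 651 (35.7 CPM) in Rab44-KO lungs under normal conditions, and 3180 (164 CPM) against 898 (46.1 CPM) under OVA-induced conditions. The WT level was above the Rab44-KO level in both conditions, slightly in normal lungs (log2FC −0.23, −0.38 to −0.08). In OVA-induced lungs the Rab44-KO level was 3.56-fold lower (log2FC −1.83, −1.94 to −1.73). Its OVA log2FC was 1.97 in WT and 0.37 (0.22 to 0.52) in Rab44-KO lungs.

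The widely used d1 subunit moved less. Atp6v0d1 had 1662, 1672, 2515 and 1547 counts, with a log2FC of −0.71 (−0.80 to −0.62) in OVA-induced lungs. The TPM ratio of Atp6v0d2 to Atp6v0d1 was 0.196 (WT) and 0.158 (Rab44-KO) without OVA, and 0.513 (WT) and 0.235 (Rab44-KO) with it. Of the 24 other pump genes listed, 22 passed the filter in OVA-induced lungs, 20 of them had a log2FC of Rab44-KO over WT below 0, and 1 was over 2-fold lower. That gene was Atp6v1b1 (132 and 53 counts), the subunit used by intercalated cells of the kidney. The median of the 22 was −0.62, with Atp6v0b at −0.98, Atp6v0c at −0.94 and Atp6v0a4 at 0.01.

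Mertk, the receptor tyrosine kinase that clears apoptotic cells, was the most even of the 10. It lies at chr2:128698956-128802894 (plus strand) and had 1452 counts (75.6 CPM) in WT against 1336 (73.2 CPM) in Rab44-KO lungs under normal conditions, and 1377 (71.1 CPM) against 1509 (77.4 CPM) under OVA-induced conditions. The highest level was 1.09-fold the lowest. No neighbours in the order of the 4 levels differed beyond counting error. The highest and the lowest, OVA-induced Rab44-KO and OVA-induced WT, did, by a log2FC of 0.12 (0.02 to 0.23), and the difference of OVA responses was 0.17 (0.02 to 0.32). The OVA-induced genotype difference was above 0 under every scaling, up to 0.45 with TPM, and −0.13 with the length trend removed. Its relatives Axl and Tyro3 had a log2FC of Rab44-KO over WT of −0.09 and 0.38 in OVA-induced lungs, both under 2-fold, and the sign of Axl turned between the settings tried, from −0.22 to 0.23.

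**Figure D2:**
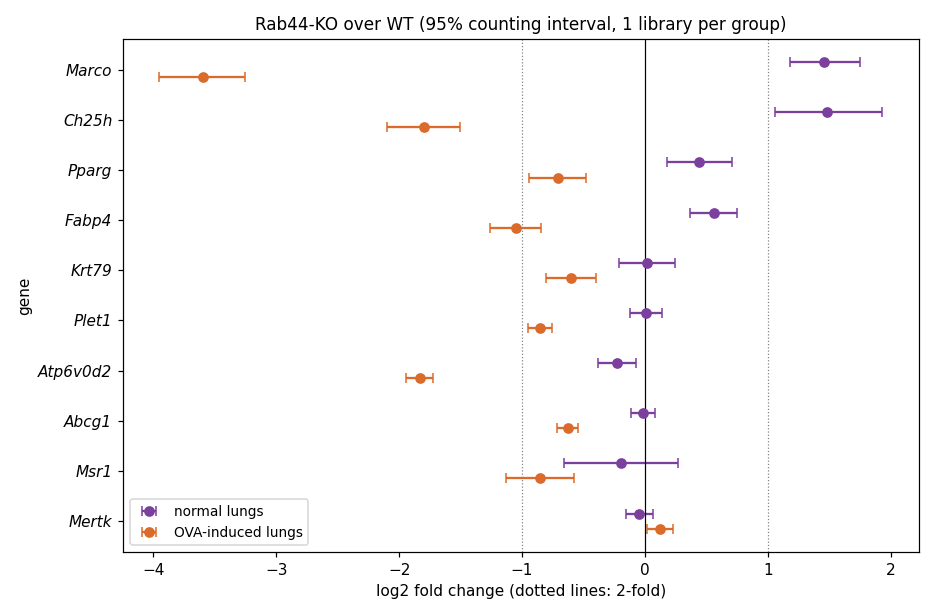
Log2FC of Rab44-KO over WT (horizontal axis) of the 10 genes in normal and in OVA-induced lungs, 1 library per group, with 95% counting intervals as error bars and dotted lines at 2-fold. Marco and Ch25h lie above 1 in normal lungs (1.46 and 1.48) and below −1 in OVA-induced lungs (−3.59 and −1.80), and Mertk lies near 0 in both.

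Counted together, 2 of the 10 genes (Marco and Ch25h) passed 2-fold upward in normal Rab44-KO lungs relative to WT and none passed it downward. Over all 18718 genes that passed the filter, 2.77% were over 2-fold higher and 2.0% lower. Among the 13166 genes reaching 100 counts, as Marco and Ch25h did, the shares were 0.334% and 0.0835%, and Ch25h and Marco stood at places 15 and 17 from the top. The list, with Marco and Ch25h on it, was drawn up with results of these libraries in view, so its count beside these shares is a description. The median log2FC of the 10 was 0.01, and that of all genes was 0.00. Members went both ways around that median. Besides Marco and Ch25h, Fabp4 and Pparg were higher and Atp6v0d2 lower in Rab44-KO lungs beyond counting error, all 3 by under 2-fold.

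Under OVA-induced conditions, 4 of the 10 (Marco, Ch25h, Atp6v0d2 and Fabp4) passed 2-fold downward in Rab44-KO lungs and none was over 2-fold higher. Of all 19259 genes, 7.34% were over 2-fold lower and 8.40% higher, and with at least 100 counts the shares were 4.34% and 3.64%. Mertk was the 1 gene of the 10 with a log2FC above 0. The median of the 10 was −0.85 beside −0.02 for all genes. From the lowest of 13704 genes, Marco stood at place 50, Atp6v0d2 at 165 and Ch25h at 173. The threshold fell between Fabp4 at −1.05 and Plet1 and Msr1, both at −0.85.

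Along OVA induction, 5 of the 10 (Ch25h, Marco, Atp6v0d2, Msr1 and Plet1) passed 2-fold upward in WT lungs, as did 8.99% of 19023 genes (5.79% of those reaching 100 counts), and none passed it downward, as did 5.20% (1.64%). In Rab44-KO lungs 1 gene, Msr1, was over 2-fold higher, as were 6.44% of 19073 genes (2.40% with 100 counts), and 1 gene, Marco, lower, as were 3.85% (1.35%). The median OVA log2FC of the 10 was 1.06 in WT and 0.05 in Rab44-KO lungs, beside all-gene medians of 0.00 and −0.01. Their summed level was 324 CPM (WT) and 347 (Rab44-KO) without OVA, and 663 (WT) and 348 (Rab44-KO) with it. The OVA-induced WT library alone stood apart in that sum.

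The difference between the 2 OVA responses, Rab44-KO less WT, was below −1 for 5 of the 10, namely Marco (−5.05), Ch25h (−3.28), Fabp4 (−1.61), Atp6v0d2 (−1.61) and Pparg (−1.15), against 9.14% of 19744 genes and 4.89% of those reaching 100 counts. None was above 1, against 8.98% and 3.14%. The value for Pparg had a counting interval that spans −1 (−1.50 to −0.81) and was −0.84 with TPM, which left 4 genes below −1. The OVA responses of Marco, Ch25h and Fabp4 had opposite signs in the 2 genotypes, with both counting intervals clear of 0. Those of Pparg (0.91 for WT, −0.24 for Rab44-KO) and Mertk (−0.09 and 0.08) also had opposite signs, but the interval reached 0 in Rab44-KO lungs for Pparg and in both genotypes for Mertk. These comparisons share libraries. A high count in OVA-induced WT enters both the OVA response of WT and the genotype difference under OVA-induced conditions.

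**Figure D3:**
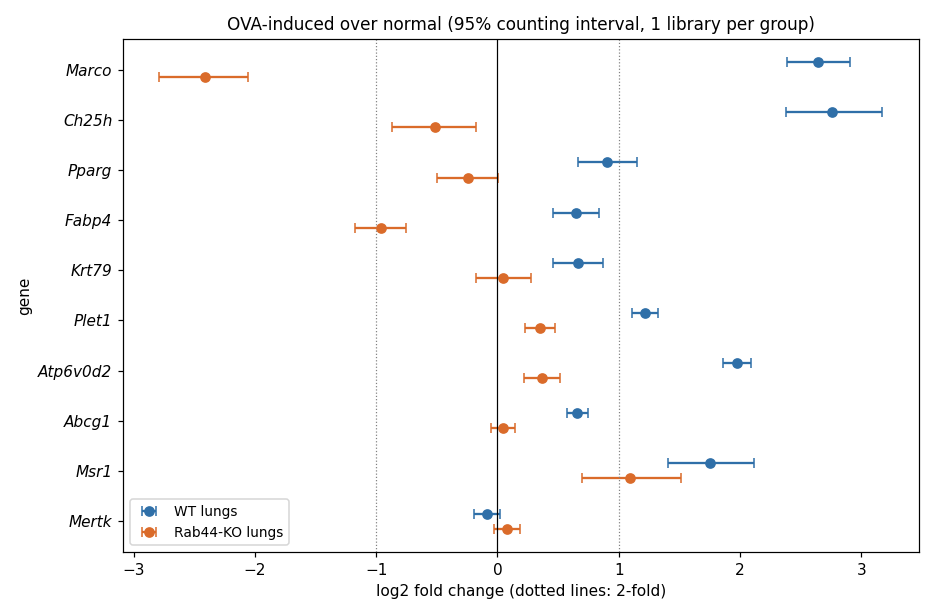
Log2FC of OVA-induced over normal lungs (horizontal axis) of the 10 genes in WT and in Rab44-KO mice, 1 library per group, with 95% counting intervals as error bars and dotted lines at 2-fold. WT values run from −0.09 (Mertk) to 2.76 (Ch25h) and Rab44-KO values from −2.41 (Marco) to 1.09 (Msr1).

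A list of 20 other alveolar macrophage genes showed how far the pattern extended. Under normal conditions none of the 20 was over 2-fold in either direction and their median genotype log2FC (Rab44-KO over WT) was −0.11. Under OVA-induced conditions 10 passed 2-fold downward and 1 upward, with a median of −0.95. With TPM 7 passed downward and the median was −0.62, beside 0.29 for all genes. Their summed level was 1802 CPM (WT) and 1682 (Rab44-KO) without OVA, and 7559 (WT) and 2228 (Rab44-KO) with it, of which Chil3 made 355, 309, 5248 and 917 CPM. Chil3 is a secreted chitinase-like protein of type 2 activated macrophages. It was above its normal level in both OVA-induced libraries, with an OVA log2FC of 3.89 for WT and 1.57 in Rab44-KO lungs.

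The markers of this list were not of 1 kind. Il1rn, the interleukin-1 receptor antagonist, had 153, 134, 560 and 187 counts. Fabp1, a fatty acid binding protein also of liver and gut, had 87, 87, 31 and 116 counts and was the 1 gene that passed 2-fold upward in Rab44-KO lungs after OVA. The surface markers Siglecf and Itgax and the ribonuclease gene Ear1 were picked after their values were seen. Siglecf, also a surface marker of eosinophils and one of the eosinophil list here, had 268, 222, 407 and 175 counts, Itgax 970, 961, 2987 and 1079, and Ear1 298, 262, 258 and 436. Itgax, which dendritic cells share, was thus highest in OVA-induced WT lungs, whereas Ear1 was highest after OVA in Rab44-KO lungs. Of the 150-base windows of Ear1 transcripts 5.67% were shared with the copy Ear-ps9, which makes its counts less certain.

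Of the 16 genes listed for the GM-CSF and TGF-β axis that programs these cells, 2 were over 2-fold lower in OVA-induced Rab44-KO lungs, none was higher, and the median was −0.54. They were Spi1, which encodes PU.1 (1559 and 770 counts, log2FC −1.03, but −0.65 with the length trend removed), and Csf2, GM-CSF itself, singled out after its values were seen (46 and 6 counts, log2FC −2.92, −4.47 to −1.72). With total counts 1 of the 16 passed 2-fold downward. Of all 19259 genes, 7.34% were over 2-fold lower and 8.40% higher. The same shares stand beside the genotype counts of the other lists in OVA-induced lungs. The receptor chains Csf2rb and Csf2rb2 had a log2FC of −0.83 and −0.82. None of the 16 was over 2-fold under normal conditions, when Marco and Ch25h were.

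The partners of the other genes were mixed. Of 25 genes of cholesterol and lipid handling, 4 passed 2-fold downward and 1 upward in OVA-induced Rab44-KO lungs, with a median of −0.30. Angptl4, an inhibitor of lipoprotein lipase, was the higher one and was over 2-fold higher under normal conditions as well, with 283, 616, 995 and 2021 counts. The lower ones were Fabp5, Npc2 at −1.15, Lipa at −1.01 and Apoc1 at −1.07, of which Npc2 and Lipa, lysosomal proteins of cholesterol release, are named after their values were seen. Apoc1, an apolipoprotein of macrophages, had 131, 213, 196 and 94 counts, the same order of genotypes as Marco. With the length trend removed Lipa (−0.79) and Apoc1 (−0.54) no longer passed 2-fold. Plin2, a coat protein of lipid droplets, was at −0.81. Of 17 other scavenger receptor genes, 3 were over 2-fold lower (median −0.46), namely Cd68 at −1.86, Olr1 at −1.49 and, named after its values were seen, Megf10 at −1.82 on 46 and 13 counts, with Mrc1 at −0.78 and Cxcl16 at −0.90. In normal Rab44-KO lungs 1 of the 17 was over 2-fold higher, at 1.53, beside 2.77% of all 18718 genes.

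Among 8 other genes of oxysterol metabolism 2 were over 2-fold lower. One was Gpr183, the receptor that a product downstream of Ch25h activates (301 and 134 counts, log2FC −1.18), whereas Cyp7b1, which makes that product, had 144 and 148 counts. The other was Sult2b1, an oxysterol sulfotransferase named after its values were seen (67 and 31 counts). With TPM neither passed 2-fold. Hsd11b1 and Cyp27a1 had a log2FC of 0.04 and −0.09. Of 17 engulfment genes beside Mertk 1 was over 2-fold lower, Adgrb1 with 23 and 10 counts, also named after its values were seen. The median was −0.05, with a sign that turned between the settings tried (−0.12 to 0.27). Itgb3, Lrp1 and Dock1 had a log2FC of 0.63, 0.66 and 0.64, and Mfge8, which bridges phagocytes to dying cells, −0.56. In normal lungs 16 of the 17 passed the filter and 1 was over 2-fold higher in Rab44-KO, at 1.53.

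Genes of other cells moved beside the 10 genes. Of 9 general macrophage markers 5 passed 2-fold downward in Rab44-KO lungs after OVA (median −1.04), and their summed level was 5620 CPM (WT) and 6173 (Rab44-KO) without OVA, and 11795 (WT) and 5658 (Rab44-KO) with it. Of 12 interstitial macrophage markers 5 were lower and 1 was higher, with sums of 612, 651, 780 and 695 CPM. The lower ones were the complement genes C1qa, C1qb and C1qc, at −1.72, −1.83 and −1.76, with Folr2 at −1.73 and Ccl12 at −1.70. The higher one was Lyve1, also a lymphatic gene, at 1.28. The general markers that passed were Cd68, Adgre1, Lyz2, Ctss and Lgals3, from −1.04 to −1.86, and with TPM 3 of the 5 did. Csf1r, the receptor for the macrophage growth factor M-CSF, was at −0.42. In normal Rab44-KO lungs 1 interstitial marker was over 2-fold higher, at 1.27, and no general marker was. Folr2, Ccl12, Lyve1, Lyz2, Ctss and Lgals3 are named after their values were seen. Their part in the results was not tested.

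Of 10 monocyte markers 1, Ly6c2 at −1.25, was over 2-fold lower (sums of 1584, 1530, 1700 and 2002 CPM), with Ccr2 at −0.78. Of 9 dendritic cell markers 5 were lower and 1 was higher (133, 151, 163 and 157 CPM). The dendritic cell markers were Flt3, Xcr1, Cd209a, Clec10a and Itgae on the lower side and Siglech, of plasmacytoid cells, on the higher, the last 4 named after their values were seen. Zbtb46, the factor of conventional dendritic cells, had a log2FC of 0.77. Siglech was over 2-fold higher in normal Rab44-KO lungs too, with 51, 162, 62 and 172 counts. Of 9 eosinophil markers 7 passed the filter and all 7 were over 2-fold lower in OVA-induced Rab44-KO lungs, with sums of 28.3, 31.1, 141 and 28.7 CPM. The defining granule genes Epx and Prg3 were at 0 in both normal libraries and had at most 3 counts in an OVA-induced library. Prg2, the major basic protein of the granule, had 1, 9, 185 and 48 counts. The widest genotype difference after OVA in the list was that of the ribonuclease gene Rnase2a, named after its values were seen, with 0, 1, 524 and 5 counts. Of 10 neutrophil markers 2 were over 2-fold higher, Mmp8 and Ly6g, named after their values were seen, and none was lower (129, 164, 632 and 797 CPM). The alarmin genes S100a8 and S100a9 had a log2FC of 0.41 and 0.48, and Retnlg −0.39. The neutrophil list was thus higher with OVA in both genotypes, with a median OVA log2FC of 2.51 (WT) and 2.48 (Rab44-KO), unlike the 10 genes. The part of these cells in the results was not tested.

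**Figure D4:**
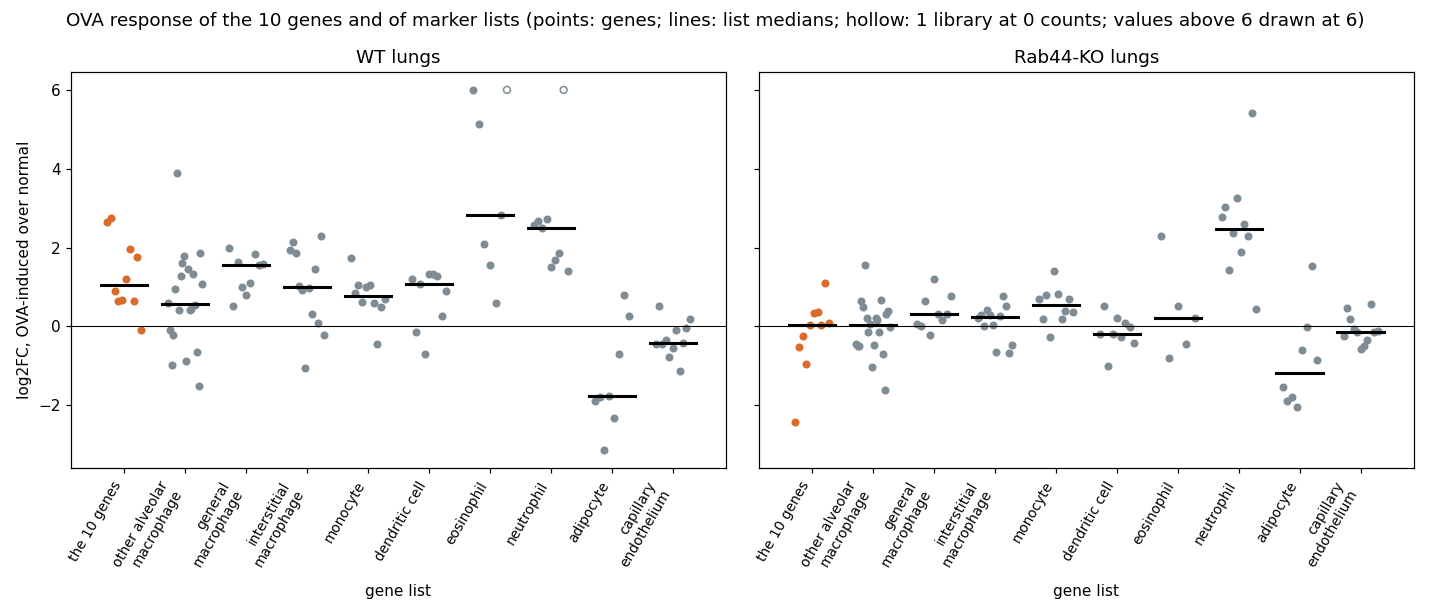
Log2FC of OVA-induced over normal lungs (vertical axis) of the 10 alveolar macrophage genes and of marker lists in WT (left) and Rab44-KO (right) lungs, 1 point per gene, hollow where a library had 0 counts, with values above 6 drawn at 6 and a line at each list median. The median of the 10 genes was 1.06 in WT but 0.05 in Rab44-KO lungs, and that of the neutrophil list was 2.51 and 2.48.

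Adipocyte and endothelial genes are given for comparison with Fabp4 and Pparg. Of 9 adipocyte markers, 8 passed the filter under normal conditions, 6 of these had a log2FC of Rab44-KO over WT above 0, and their median log2FC was 0.45, beside 0.56 for Fabp4 and 0.44 for Pparg. Their summed level was 86.6 CPM (WT) and 127 (Rab44-KO) without OVA, and 69.7 (WT) and 151 (Rab44-KO) with it. Adipoq and Plin1 had 92 and 62 counts in normal WT and 159 and 122 in normal Rab44-KO lungs. Lep, leptin, had 36, 23, 4 and 7 counts. In normal Rab44-KO lungs 1 adipocyte marker was over 2-fold higher, at 1.05. Under OVA-induced conditions 4 of the adipocyte markers were over 2-fold higher in Rab44-KO lungs, where Fabp4 and Pparg were lower. They were Adipoq and, named after their values were seen, Retn, Plin4 and Lipe. Capillary endothelial markers were near level under normal conditions (median 0.05 over 11 genes) and none was over 2-fold then. Their sums were 3988, 4024, 3162 and 4137 CPM, and 1 of them, Cd93, also named after its values were seen, passed 2-fold upward in OVA-induced Rab44-KO lungs (1.26), where the log2FC was −0.01 for Gpihbp1, −0.10 for Cldn5 and 0.69 for Cdh5. The part of adipocytes and endothelium in the Fabp4 and Pparg values was not tested.

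Alveolar type 2 and airway cells, the neighbours of these macrophages, are given for comparison. Of 9 alveolar type 2 markers 1, Sftpc, was over 2-fold lower in OVA-induced Rab44-KO lungs (−1.01, but −0.44 with the length trend removed) and the median was −0.51, with Sftpa1 at −0.58 and Sftpb at −0.19. Their sums were 21804, 21827, 31894 and 19312 CPM. Of 12 club and airway markers, 11 passed the filter, 1 was over 2-fold lower, Muc5b at −1.53, and 1 higher, Bpifa1 at 2.96, with a median of −0.13 that was 0.19 with TPM (sums of 26731, 27262, 18886 and 21640 CPM). The secretory cell genes Scgb1a1, Scgb3a2 and Cyp2f2 had a log2FC of 0.14, 0.62 and 0.91. In normal Rab44-KO lungs 1 of the 12 club and airway markers was over 2-fold higher, at 1.30. Of 9 fibroblast and smooth muscle markers 1, Lum at −1.41, was over 2-fold lower, with a median of −0.33 (1942, 2011, 2247 and 1909 CPM), and Col1a1, Col3a1 and Pdgfra had a log2FC of −0.33, −0.98 and 0.67. Muc5b, Bpifa1 and Lum are named after their values were seen. Their part in the results was not tested either.

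The genes whose levels over the 4 libraries ran closest to 3 of the 10 genes were sought by the distance of log2 CPM centred on each gene's mean, over the 13899 genes reaching 100 counts in any library. For Krt79 the closest were Rexo2, Abcg1, Ripk3, Ptpn18 and Ddx41, at distances of 0.02 to 0.04. For Ch25h they were Serpina3f, Bcl2a1a, Batf3, Igkv12-46 and Gm40645, at 0.51 to 0.57. Marco had no near neighbour. Its closest genes were Ccnb1, Agr2, Tff2, Rtl1 and Gm12191, at 1.14 to 1.19, and Ccnb1 had 54, 51, 141 and 13 counts, with normal libraries that were level where those of Marco were not. With 4 libraries such a distance ranks genes and is no evidence of a link between them.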

How the data were processed

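Lung RNA-seq libraries of normal and OVA-induced WT and Rab44-KO mice were compared, 1 per group. The authors trimmed 150-bp paired-end reads from a directional kit, aligned them to GRCm38 with HISAT2, used featureCounts to assign reads to genes, and deposited unscaled counts. Tool versions and the handling of strand and of multiply matching reads are not given in the sources used here. TPM values were deposited by the authors as well and equal the counts rescaled by 1 length per gene. The authors' own DESeq2 comparisons were not used. Deposited gene starts equal RefSeq GRCm38 starts for 2.13% of 36990 matched genes, so positions are from GENCODE M21, in which no 150-base window of the 10 genes was shared with another gene.

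Counts were scaled with edgeR 4.0.16 (TMM, factors 0.973 to 1.02) in R 4.3.3. The log2FC used a prior count of 0.125 and genes reaching 10 counts in either library compared. Intervals were computed in Python 3.11.15 with scipy 1.17.1, numpy 2.4.6 and pandas 2.3.3, and figures drawn with matplotlib 3.10.9. The interval of a difference of OVA responses is a normal approximation from the 4 counts. A model with additive genotype and OVA terms was left out, since its 1 residual degree of freedom assumes equal genotype differences, and p-values are not given. A count of 0 sets a floor of 3 counts, 0.154 to 0.164 CPM. The steps were tested on simulated counts.

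The 10 genes and all other lists were chosen with earlier results of these data known. Genes named beside them are the first 3 of each marker list, up to 4 per other list with at least 100 counts and the largest absolute log2FC, close relatives, the nearest patterns, and those said to be picked after their values were seen. Alternatives were DESeq2 1.42.0 size factors, total counts, TMM on 2 libraries or without immunoglobulin genes, TPM with a pseudocount of 0.1, a prior count of 2, thinning to the smallest library, other count minimums, an absolute log2FC above 2, intervals wholly beyond 2-fold, and removal of a running median of log2FC over 501 genes along gene length. Those for the difference of OVA responses were added after seeing the data. Some genes that the rule for named genes also selected are not reported here.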

Additional observations from a re-analysis of the deposited data

Results flagged for a closer look

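Marco, Ch25h and Fabp4 were singled out because their OVA responses had opposite signs in WT and Rab44-KO lungs, with both counting intervals clear of 0. The OVA log2FC in Rab44-KO less that in WT was −5.05 for Marco, −3.28 for Ch25h and −1.61 for Fabp4. With 1 library per group the difference between the genotypes was not tested.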

How the results depend on the processing

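No paired analysis was possible because the labels give no replicate numbers and each group holds 1 library, which also leaves no replicate to omit. At an absolute log2FC above 2, the genes over the threshold were 0 instead of 2 (normal, higher in Rab44-KO), 1 instead of 4 (OVA-induced, lower), 2 instead of 5 (OVA response of WT, higher), 0 instead of 1 (OVA response of Rab44-KO, higher) and 2 instead of 5 (difference of OVA responses below −1). The 1 gene over 2-fold higher by OVA in Rab44-KO lungs, Msr1, was also lost, leaving 0, with the length trend removed and where the interval had to lie wholly beyond 2-fold. The 4 genes lower in OVA-induced Rab44-KO lungs were 3, without Fabp4, with total counts (−0.99), with TPM and where the interval had to lie wholly beyond 2-fold. With TPM the median under OVA-induced conditions was −0.52 instead of −0.85, but TPM shifted the median of all genes by 0.32 there, by −0.17 in the OVA response of WT and by 0.12 in that of Rab44-KO lungs. With the length trend removed, the 4 genes lower in OVA-induced Rab44-KO lungs held Msr1 (−1.20) in place of Fabp4 (−0.49), and the cause of these shifts was not tested. The difference of OVA responses of Pparg was −0.84 with TPM instead of −1.15, and no longer below −1. Signs changed between settings for Mertk and Abcg1, for Abcg1 within −0.04 to 0.17. Low counts limit the precision, as for Ch25h in normal WT lungs (62 counts).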
